A study of Mus musculus with 9 samples.

Results

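Ctla2a, Adgra1, Piezo2 and Odaph are 4 genes whose transcripts were among the deepest to fall in mouse prostate organoids when mitochondrial pyruvate import was blocked. They belong to no common pathway. They were picked by name out of 52248 named genes of an RNA-seq table, and their falls with the drug and with the gene deletion, both against vehicle, were the values that led to the choice. Their own differences are therefore given as a description, with no test.

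The organoids were grown from basal cells of male mice carrying floxed Mpc1 alleles (Mpc1 fl/fl, mixed C57BL/6N and C57BL/6J background, age not given in the sources used here). Mpc1 codes for a subunit of the mitochondrial pyruvate carrier, through which pyruvate made in the cytosol enters mitochondria. Vehicle organoids were infected with a lentivirus for red fluorescent protein (RFP) and given solvent. UK5099 organoids had the same RFP virus and were kept for a week in 10 µM of UK5099, a small-molecule inhibitor of the carrier. In Mpc1-KO organoids a lentivirus supplied Cre recombinase together with RFP, and solvent was given. According to the methods, RFP-positive cells were sorted from dissociated organoids after infection. Each group had 3 libraries. Cre was present in the Mpc1-KO organoids alone, so the effects of Cre and of the deletion cannot be told apart. Whether the 3 libraries of a group were separate cultures or animals was not stated, and the spread between them may be technical.

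Libraries held 16.5 to 28.7 M reads, and the floor of detection, set at 3 reads, equalled 0.104 to 0.182 CPM (reads of a gene scaled to a common total of reads assigned to genes). Mpc1 itself had 52, 66 and 57 reads in vehicle libraries 1 to 3, 51, 65 and 38 reads with UK5099 and 15, 12 and 13 reads in Mpc1-KO. The Mpc1-KO label was thus borne out by the targeted gene, with 23.1% of the vehicle mean left. What the remaining Mpc1 reads stand for was not tested. Vehicle and UK5099 cannot be told apart by this gene. Replicates spread most in the UK5099 group, where the median log2 SD of a gene was 0.181, against 0.0876 for vehicle and 0.0608 for Mpc1-KO. All 7 prostate epithelial markers listed, named after their values were seen, had a mean above 1 CPM in each group. With UK5099 3 of them rose and 3 fell (limma adjusted p below 0.05, against 38.1% of all genes). In Mpc1-KO 1 rose (against 10.7% of all genes), a call of Krt5 lost without some single libraries (highest adjusted p = 0.105). Fitted log2 fold changes with UK5099 and in Mpc1-KO were -0.93 and -0.03 for Epcam, -0.55 and -0.22 for Krt8, 1.99 and 0.36 for Krt5, and 1.86 and -0.20 for Krt14.

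Each of the 4 genes is better known from another tissue. Ctla2a codes for cytotoxic T lymphocyte-associated protein 2 alpha, a small rodent protein that resembles the propeptide of cathepsin L and inhibits cathepsin L-like cysteine proteases. Adgra1, earlier named Gpr123, codes for an adhesion G protein-coupled receptor studied mainly in the brain. Piezo2 codes for a mechanically gated cation channel that serves touch in Merkel cells and sensory neurons. Odaph codes for odontogenesis associated phosphoprotein, a secreted protein of developing enamel whose human counterpart is mutated in some families with amelogenesis imperfecta.

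The 250 bases before the first listed start are shown for Ctla2a, for its close paralog Ctla2b and for Odaph, because these 3 windows share a letter motif and because the Ctla2a and Ctla2b windows are nearly the same sequence. They are RefSeq sequences of build GRCm38.p6, at chr13:60936626-60936875 (minus strand), chr13:60897448-60897697 (minus strand) and chr5:91987223-91987472 (plus strand). Capitals mark TGACTCA, the letters that AP-1 type transcription factors recognise.
Ctla2a: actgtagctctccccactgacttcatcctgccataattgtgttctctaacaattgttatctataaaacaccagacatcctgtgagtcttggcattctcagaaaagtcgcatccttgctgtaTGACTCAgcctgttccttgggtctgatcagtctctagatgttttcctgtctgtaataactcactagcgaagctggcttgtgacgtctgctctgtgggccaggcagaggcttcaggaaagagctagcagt
Ctla2b: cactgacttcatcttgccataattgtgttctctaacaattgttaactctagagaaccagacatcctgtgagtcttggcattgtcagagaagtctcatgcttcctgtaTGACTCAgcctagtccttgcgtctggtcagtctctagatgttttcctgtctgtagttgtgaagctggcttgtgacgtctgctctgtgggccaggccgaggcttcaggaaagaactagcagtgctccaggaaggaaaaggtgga
Odaph: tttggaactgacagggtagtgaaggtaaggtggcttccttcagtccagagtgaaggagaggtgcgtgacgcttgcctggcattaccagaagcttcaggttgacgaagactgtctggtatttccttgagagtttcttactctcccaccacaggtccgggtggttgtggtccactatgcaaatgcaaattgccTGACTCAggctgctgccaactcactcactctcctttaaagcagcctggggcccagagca
The letters were searched on both strands as TGACTCA and TGAGTCA, and they stood 129 bases before the start in Ctla2a, 143 in Ctla2b and 59 in Odaph. Ctla2a has a second annotated start, from which the distance was 188 bases. Of 4 motifs searched, TGACTCA is shown because all 3 windows held it. GCGTG was in the Odaph window (28.2% of all windows), TATAAA in that of Ctla2a (12.4%) and TGACGTCA in none of these (1.55%). The Adgra1 window held none of the 4, and Piezo2 was not examined. Of 32851 annotated promoter windows of this length, 4.46% held the motif. The Ctla2a and Ctla2b windows were identical at 208 of 228 aligned bases (91.2%). Adgra1 lies on chromosome 7. A letter match is a description of the window and not a measured binding site.

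On the log2(CPM + 0.5) scale, Ctla2a had the deepest fitted fall with UK5099 of all 12396 genes tested. This rank is tied to the 0.5 CPM added: with 2 CPM in its place, the value of Ctla2a was -3.28. Fn1 (-4.20 with 0.5 CPM) held 7116 CPM in vehicle and 409 CPM with UK5099, levels that such an addition hardly changes. Ranks with 2 CPM were not computed. Vehicle libraries 1 to 3 held 19.2, 23.9 and 22.9 CPM of Ctla2a (424, 654 and 548 reads). UK5099 libraries 1 to 3 held 1.08, 0.152 and 0.243 CPM (27, 4 and 4 reads), and Mpc1-KO libraries 1 to 3 held 3.66, 5.42 and 2.85 CPM (105, 122 and 62 reads). The 3 groups did not overlap, in the order vehicle, Mpc1-KO, UK5099. UK5099 library 1 kept the most transcript of its group, and libraries 2 and 3 lay 1 read above the floor of detection. The exact 95% Poisson interval, which covers counting error only, was 0.713 to 1.58 CPM in UK5099 library 1, 0.0415 to 0.390 CPM in library 2 and 0.0661 to 0.621 CPM in library 3.

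The mean level of Ctla2a was 22.0 ± 2.46 CPM in vehicle, 0.492 ± 0.513 with UK5099 and 3.98 ± 1.32 in Mpc1-KO (mean ± SD, n = 3 libraries per group throughout). This left 2.24% of the vehicle mean with the drug and 18.1% with the deletion. On the log2(CPM + 0.5) scale the fitted fold changes were -4.61 ± 0.32 (SE) with UK5099 and -2.36 ± 0.32 in Mpc1-KO. The added 0.5 CPM matters at so few reads: with 0.1 CPM in its place, the value with UK5099 was -5.56. In bulk RNA, fewer cells with a transcript and less transcript per cell cannot be told apart.

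**Figure D1:**
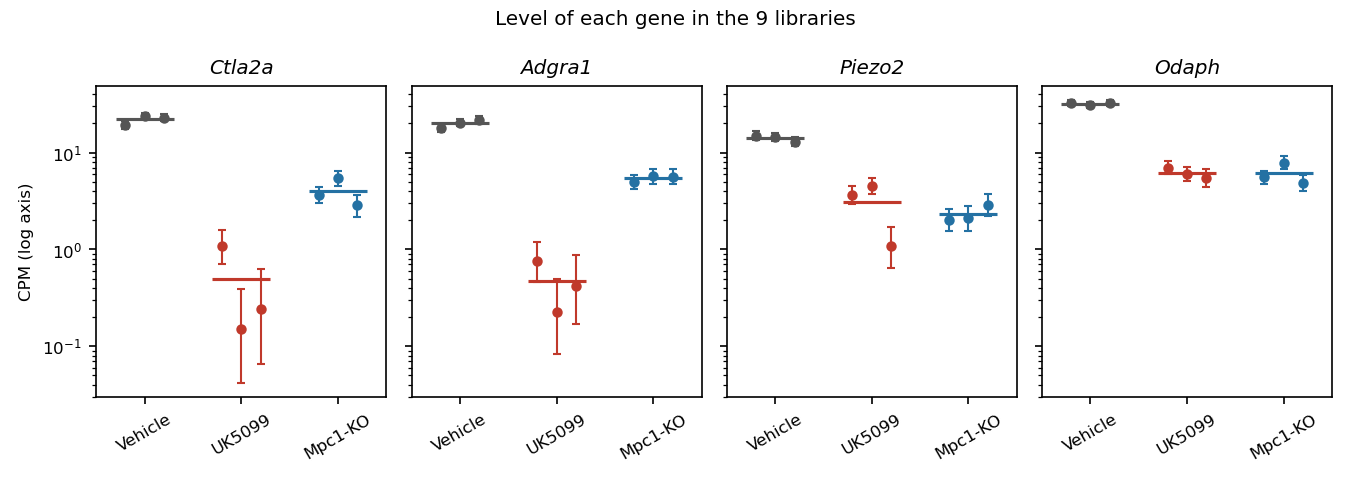
Level of Ctla2a, Adgra1, Piezo2 and Odaph in each library, in CPM on a log axis, with exact 95% Poisson intervals (counting error only) as bars and group means as horizontal lines. UK5099 libraries lie below Mpc1-KO libraries for Ctla2a (at most 1.08 against at least 2.85 CPM) and Adgra1, while both groups overlap for Piezo2 and Odaph.

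Adgra1 followed the same order of groups. Vehicle libraries 1 to 3 held 18.0, 20.3 and 21.7 CPM (398, 557 and 519 reads), UK5099 libraries 0.762, 0.228 and 0.424 CPM (19, 6 and 7 reads), and Mpc1-KO libraries 4.94, 5.73 and 5.65 CPM (142, 129 and 123 reads). No library of one group overlapped another group, and the Mpc1-KO libraries lay close together. Group means were 20.0 ± 1.85, 0.472 ± 0.270 and 5.44 ± 0.435 CPM, which left 2.36% of the vehicle mean with UK5099 and 27.2% in Mpc1-KO. Fitted log2 fold changes were -4.43 ± 0.19 and -1.79 ± 0.19. With 0.1 CPM added in place of 0.5, the value with UK5099 was -5.24.

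Piezo2 fell in both conditions, to levels that overlapped. Vehicle libraries 1 to 3 held 14.9, 14.5 and 13.0 CPM (329, 396 and 311 reads). UK5099 libraries held 3.65, 4.53 and 1.09 CPM (91, 119 and 18 reads), and Mpc1-KO libraries held 2.02, 2.09 and 2.90 CPM (58, 47 and 63 reads). Every vehicle library was above every other library, whereas UK5099 and Mpc1-KO overlapped. UK5099 library 3 stood low in its group, with an interval of 0.647 to 1.73 CPM that did not reach the interval of library 1 (2.94 to 4.48 CPM). It was also the shallowest library of the series. The means were 14.1 ± 0.993 CPM in vehicle, 3.09 ± 1.79 with UK5099 (21.9% of vehicle) and 2.33 ± 0.487 in Mpc1-KO (16.5% of vehicle). Fitted log2 fold changes were -2.18 ± 0.36 and -2.38 ± 0.36, and without UK5099 library 3 the value with the drug was -1.68.

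Odaph had the most even levels of the 4 genes within vehicle. Vehicle libraries 1 to 3 held 32.3, 31.1 and 32.4 CPM (713, 851 and 774 reads), UK5099 libraries 6.98, 6.02 and 5.46 CPM (174, 158 and 90 reads), and Mpc1-KO libraries 5.54, 7.87 and 4.87 CPM (159, 177 and 106 reads). Vehicle stood apart from both conditions, and the range of Mpc1-KO enclosed the range of UK5099. Means were 31.9 ± 0.737, 6.15 ± 0.768 and 6.09 ± 1.57 CPM, with 19.3% of vehicle left by the drug and 19.1% by the deletion. Fitted log2 fold changes were -2.29 ± 0.16 and -2.32 ± 0.16.

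The fall with the drug was then set against that with the deletion. For Ctla2a the group mean was 44.7-fold lower with UK5099 and 5.53-fold lower in Mpc1-KO, and for Adgra1 the values were 42.5-fold and 3.68-fold. Mpc1-KO organoids held 8.07-fold more Ctla2a and 11.5-fold more Adgra1 than UK5099 organoids, with fitted log2 differences (Mpc1-KO minus UK5099) of 2.25 ± 0.32 and 2.65 ± 0.19. For Piezo2 the group mean was 4.57-fold lower with the drug and 6.05-fold lower with the deletion, and for Odaph 5.19-fold and 5.24-fold. The fitted differences of Piezo2 and Odaph, -0.19 ± 0.36 and -0.03 ± 0.16, were no larger than their standard errors. That of Piezo2 depended on UK5099 library 3: without it the difference was -0.70 ± 0.17, with less Piezo2 in Mpc1-KO than in UK5099, and as the log2 ratio of group means with no pseudocount it was -0.40. Both falls were measured against the same vehicle libraries.

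**Figure D2:**
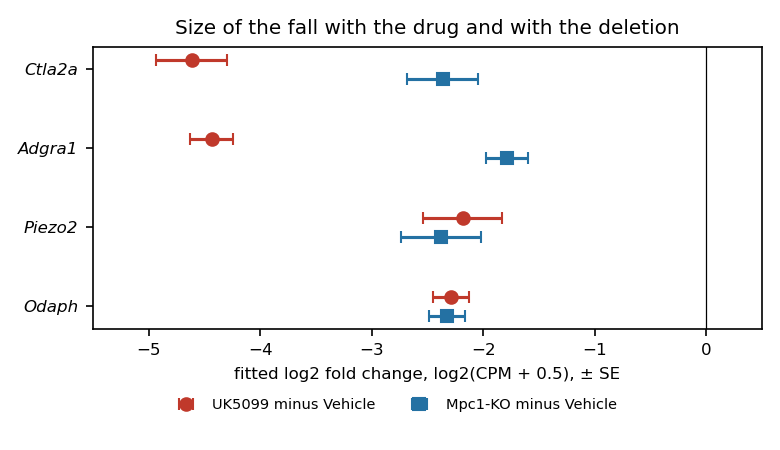
Fitted log2 fold change of each gene, on the log2(CPM + 0.5) scale with its standard error, for UK5099 (red circles) and Mpc1-KO (blue squares) against vehicle. Both values lie apart for Ctla2a (-4.61 and -2.36) and Adgra1 (-4.43 and -1.79) and together for Piezo2 and Odaph.

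Vehicle libraries did not overlap UK5099 or Mpc1-KO libraries in any of the 4 genes. The share of all genes without such overlap was not computed, and the shares that follow are of genes passing a test. Across all 12396 genes, 38.1% passed the limma test (adjusted p below 0.05) between UK5099 and vehicle, with 19.9% higher and 18.2% lower with the drug. In Mpc1-KO against vehicle 10.7% passed (5.64% higher and 5.03% lower), and in Mpc1-KO against UK5099 44.4% passed (21.1% higher and 23.2% lower). The larger share with UK5099 than in Mpc1-KO turned around when only the 6 libraries of each comparison were fitted. Since the 4 genes were chosen on their falls, nothing is read from their count. Ranks by depth of fall are those of the fit with 0.5 CPM added. With 2 CPM added, Ctla2a and Adgra1 had values of -3.28 and -3.16 with UK5099, and ranks were not computed. Among the 10182 genes that averaged 5 CPM or more, Ctla2a, Adgra1, Odaph and Piezo2 ranked 1, 3, 37 and 47 by depth of fall with UK5099, and 3, 9, 4 and 2 in Mpc1-KO. Around them with UK5099 stood Cyp26b1, which degrades retinoic acid, at rank 2 (-4.49), and Dmbt1, a mucin-like scavenger protein, at rank 4 (-4.34). Dmbt1 also held rank 1 in Mpc1-KO (-2.46), whereas Cyp26b1 had 241 CPM in vehicle and 252 CPM in Mpc1-KO. Next to Odaph with UK5099 were Dpysl3 (-2.30) and Pgf (-2.28), and next to Piezo2 were Coro6 (-2.19) and Bst1 (-2.18). A fall of more than 2 on the log2 scale was fitted for 91 genes with UK5099, for 9 in Mpc1-KO and for 8 in both, among them Ctla2a, Odaph and Piezo2 but not Adgra1.

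Most of the tested transcripts used as mesenchymal markers fell with UK5099. These markers were named after their values were seen, so their counts are a description and not an independent test. Of 12 markers on that list, 6 were tested, and 5 fell and 1 rose with UK5099, against 18.2% and 19.9% of all genes. In Mpc1-KO 3 fell, against 5.03% of all genes. Fn1, which codes for fibronectin, was left at 3.56% to 8.25% of its vehicle mean in UK5099 libraries and 37.7% to 49.7% in Mpc1-KO libraries, and Vim, which codes for vimentin, at 3.66% to 6.34% and 22.9% to 32.7%. Pdgfra did not share this order, with -0.95 for UK5099 and -1.27 for Mpc1-KO on the log2 scale. Its difference between Mpc1-KO and UK5099 did not pass (limma adjusted p = 0.25). The summed level of the list was 6758 to 7942 CPM in vehicle, 280 to 614 CPM with UK5099 and 2738 to 3602 CPM in Mpc1-KO, nearly all of it Fn1, and Col1a2, a defining collagen of fibroblasts, was listed at 0 in every library. The call of Fn1 in Mpc1-KO (-1.21, adjusted p = 0.015) was lost without vehicle library 2 or 3 or Mpc1-KO library 1 or 3 (highest adjusted p = 0.0792). The marker that rose with UK5099 was Dcn, which codes for decorin of fibroblasts (2.05, adjusted p = 0.011), and it did not pass in Mpc1-KO (1.44, adjusted p = 0.10), except without vehicle library 2 or UK5099 library 1 and with only the 6 libraries compared. The part of such cells, or of such genes in epithelial cells, in the falls was not tested.

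Markers of other cell types, also named after their values were seen, were measured beside the 4 genes. Of 13 lymphocyte markers, none reached 1 CPM in any library and 9 were at 0, including Cd3d and Cd8a, and the whole list summed to 0.136 to 0.878 CPM in vehicle, 0.0606 to 0.305 with UK5099 and 0.178 to 0.313 in Mpc1-KO. The part of lymphocytes in the level of Ctla2a was not tested. Of 10 neuroendocrine and Merkel cell markers, 8 stayed below 1 CPM and 3 were at 0, Atoh1 and Insm1 among them, with a sum of 2.17 to 3.21 CPM in vehicle, 2.85 to 3.76 with UK5099 and 3.08 to 4.04 in Mpc1-KO. Of 11 endothelial markers, 8 stayed below 1 CPM and Cdh5 and Emcn were at 0, and the sum was 4.12 to 4.81, 5.53 to 7.46 and 5.10 to 5.81 CPM in the same order. The sum of 9 neuron markers moved in the direction of the falls, from 60.7 to 67.7 CPM in vehicle to 35.1 to 54.0 with UK5099 and 35.8 to 39.2 in Mpc1-KO. Of these 9 markers, 5 stayed below 1 CPM, Elavl4 was at 0 and 3 were tested. The lower sum was that of Stmn2, which fell with UK5099 (-1.15, adjusted p = 0.0044) and in Mpc1-KO (-1.39, adjusted p = 0.0088, a call lost without Mpc1-KO library 1 or 3, highest 0.053). Map2 passed in neither (adjusted p = 0.99 and 0.82), Snap25 rose with UK5099 (0.73, adjusted p = 0.015, lost without vehicle library 2 or 3 or UK5099 library 2, highest 0.0621), and the part of neurons in the falls was not tested. Of 8 mast cell and blood progenitor markers, 5 were at 0, and the sum was 141 to 170 CPM in vehicle, 194 to 283 with UK5099 and 180 to 184 in Mpc1-KO. Most of this sum was Cd34 (119 to 143 CPM in vehicle), which rose with UK5099 (0.81, adjusted p = 0.0013). Kit, a receptor of mast cells and blood progenitors on the same list, fell in both conditions, by less than any of the 4 genes. Its change was -0.58 with UK5099 (adjusted p = 0.019, a call lost without vehicle library 2 or 3, highest 0.0842) and -1.14 in Mpc1-KO (adjusted p = 0.0039). The part of such cells was not tested.

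**Figure D3:**
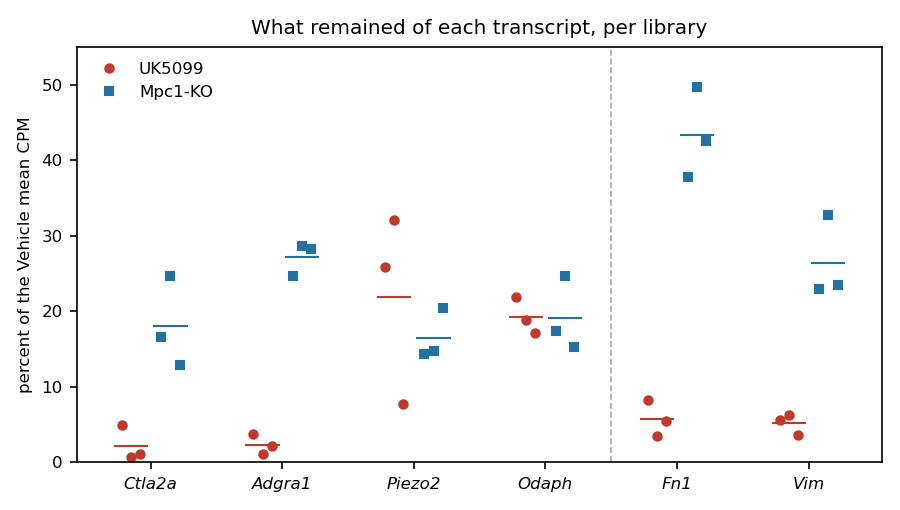
Level in each UK5099 (red circles) and Mpc1-KO (blue squares) library as a percentage of the mean of the vehicle libraries, with group means as lines, for the 4 genes and, right of the dashed line, Fn1 and Vim. Fn1 and Vim kept less with the drug (5.75% and 5.22% on average) than with the deletion (43.3% and 26.4%), the order also seen in Ctla2a and Adgra1. Pdgfra, on the same marker list and not drawn, did not share this order.

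Likeness of pattern over the 9 libraries was taken as Pearson's r of log2(CPM + 0.5), with no p since the libraries fall into 3 separate groups. Among the 4 genes r restates the group levels given above. It was 0.98 between Ctla2a and Adgra1 and 0.92 between Piezo2 and Odaph, and 0.70 to 0.86 for the other combinations. The closest genes to Ctla2a were Ntn4, a basement membrane netrin (r = 0.996), the ubiquitin gene Ubb (0.994) and Dmbt1 (0.992). Those closest to Adgra1 were Mmp14, a membrane-bound matrix metalloproteinase (0.996), Iqsec1 (0.995) and Uba7 (0.994). For Piezo2 they were Sptan1, which codes for alpha spectrin (0.973), Adcy7, an adenylyl cyclase gene (0.972), and Syne1 (0.971). Among those closest to Odaph were Srd5a1, a steroid 5-alpha reductase gene (0.986), and Adam12 (0.985). r measures the order and spacing of libraries and not the size of a change: Ubb had fitted log2 fold changes of -0.28 with UK5099 and -0.14 in Mpc1-KO. At r of 0.95 or more there were 196 genes for Ctla2a, 268 for Adgra1, 33 for Odaph and 10 for Piezo2.

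The nearest paralogs were not part of the choice and were tested. Ctla2b, the neighbour and paralog of Ctla2a, had too few reads for the test: 8, 9 and 4 in vehicle libraries 1 to 3, 4, 0 and 1 with UK5099 and 0, 3 and 2 in Mpc1-KO. Only its vehicle libraries and UK5099 library 1 had more than 3 reads. Of the 50-base windows of Ctla2a transcripts, 30.4% (403 of 1324) also occur in transcripts of other genes, 319 of them in Gm49391, which was listed at 0 in every library. For Ctla2b 90.4% of windows are shared, and so its reads, and a part of those of Ctla2a, depend on how shared reads were assigned. For Adgra1, Piezo2 and Odaph no window was shared.

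Adgra2 (Gpr124), which acts with Reck in Wnt7 signalling at the blood-brain barrier, moved in opposite directions with the drug and the deletion. It held 3.22, 2.12 and 2.63 CPM in vehicle libraries 1 to 3, 0.561, 0.723 and 1.27 CPM with UK5099 and 4.49, 5.38 and 5.47 CPM in Mpc1-KO, and no group overlapped another. It fell with UK5099 (log2 fold change -1.24 ± 0.21, limma adjusted p = 0.0013) and rose in Mpc1-KO (0.84 ± 0.21, adjusted p = 0.036), with a difference between Mpc1-KO and UK5099 of 2.08 (adjusted p = 6.0e-05). The rise in Mpc1-KO lost its call without any 1 of the vehicle or Mpc1-KO libraries (highest adjusted p = 0.136), while the fall and the difference passed in every alternative that tested them. Adgra3 (Gpr125) fell with UK5099 from 53.2 ± 4.70 to 35.4 ± 11.3 CPM (-0.62, adjusted p = 0.017), a call lost without vehicle library 1 (adjusted p = 0.0591) or without UK5099 library 2 (0.0649) or 3 (0.0522) and with only the 6 libraries compared (0.0508), and it did not pass in Mpc1-KO (-0.25, adjusted p = 0.38), except without UK5099 library 1 (0.0162) and with only the 6 libraries compared (0.0117).

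Piezo1, the other member of the Piezo family, which senses membrane tension in many tissues, was expressed at 136, 126 and 122 CPM in vehicle libraries 1 to 3. It held 165, 147 and 118 CPM with UK5099 and 94.8, 94.5 and 93.6 CPM in Mpc1-KO. The Mpc1-KO libraries were below all others, and the UK5099 and vehicle libraries overlapped. Piezo1 fell in Mpc1-KO (-0.44 ± 0.10, adjusted p = 0.028) and did not pass with UK5099 (0.15, adjusted p = 0.29, or 0.0095 without UK5099 library 3). The difference between Mpc1-KO and UK5099 was -0.59 (adjusted p = 0.0015). The call in Mpc1-KO was lost without any 1 of the vehicle or Mpc1-KO libraries (highest adjusted p = 0.106).

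Related genes were then counted in 4 lists made from textbook function, none of which held the 4 genes. The lists were made with earlier results of these data known, so their counts are not an independent test. Of their 104 genes, 58 were tested. With UK5099 21 were higher and 21 lower (72.4% of 58, against 38.1% of all genes), and 35 of these 42 passed in every alternative that tested them. In Mpc1-KO 3 were higher and 11 lower (24.1%, against 10.7%), and of these 14 only Adgrb1 and Mmp20 passed in every alternative. The count of 14 in Mpc1-KO was 2 without vehicle library 1 or 3 or Mpc1-KO library 1 or 3, 4 without vehicle or Mpc1-KO library 2, and 25 without UK5099 library 1.

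Of 14 measured genes of the list of Ctla2 proteins, cysteine cathepsins and cystatin-type inhibitors, 5 rose and 6 fell with UK5099. This was 78.6%, against 38.1% of all genes, with a median log2 fold change of -0.18, against 0.04 over all genes. The stefin genes Csta1 and Stfa3, inhibitors of cysteine cathepsins, rose, Csta1 from 6.23 ± 0.306 to 87.2 ± 14.2 CPM (3.69, adjusted p = 1.0e-07) and Stfa3 from 0.0842 ± 0.0448 to 5.29 ± 2.48 CPM (3.23, adjusted p = 1.1e-05), both from a family with near-identical copies, so that their split is uncertain. The cathepsin genes moved both ways. Ctsc rose from 683 ± 19.0 to 873 ± 113 CPM (0.35, adjusted p = 0.0078), while Ctsz fell from 63.4 ± 2.93 to 29.2 ± 2.63 CPM (-1.11, adjusted p = 3.6e-06) and Ctsl, the cathepsin L gene, from 510 ± 13.2 to 329 ± 37.9 CPM (-0.64, adjusted p = 1.4e-04). In Mpc1-KO none rose and 3 fell (21.4%, against 10.7% of all genes), with a median of -0.18, against -0.01. Those that fell were Ctsc (-0.41, adjusted p = 0.015), Ctsz (-0.28, 0.040) and Ctsl (-0.28, 0.044). The 3 calls were lost without some single libraries. For Ctsc, which fell here and rose with the drug, the difference between Mpc1-KO and UK5099 was -0.76 (adjusted p = 8.4e-05).

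Of 17 measured adhesion receptor genes, 8 rose and 6 fell with UK5099 (82.4%, against 38.1% of all genes, median 0.24). Adgre5 (CD97) rose from 67.3 ± 5.16 to 150 ± 18.4 CPM (1.14, adjusted p = 1.2e-05) and Adgrl1, a latrophilin gene, from 27.8 ± 4.58 to 56.7 ± 10.8 CPM (1.01, adjusted p = 3.5e-04). Adgrf5 fell from 11.7 ± 1.91 to 3.21 ± 0.659 CPM (-1.72, adjusted p = 4.3e-05) and Adgrg6 (Gpr126) from 215 ± 8.47 to 154 ± 12.3 CPM (-0.48, adjusted p = 2.5e-04). In Mpc1-KO 3 rose and 3 fell (35.3%, against 10.7% of all genes, median -0.10). Adgrb1 (Bai1), a receptor for phosphatidylserine on dying cells, rose from 23.1 ± 2.89 to 38.6 ± 2.73 CPM (0.73, adjusted p = 0.0072), and also rose with UK5099 (0.69, adjusted p = 0.0015). Adgre5 (-0.46, adjusted p = 0.015) and Celsr2 (-0.32, adjusted p = 0.022) fell in Mpc1-KO, opposite to their rise with UK5099 (differences of -1.60 and -0.56, adjusted p = 2.5e-06 and 2.0e-04). Both calls in Mpc1-KO were lost without some single libraries (highest adjusted p = 0.076 and 0.0842). The rise of Celsr2 with UK5099 was lost without vehicle library 2 or 3 (highest 0.078). Adgrg6 fell as well in Mpc1-KO (-0.24, adjusted p = 0.041). That call was lost with the replicate block (adjusted p = 0.0537), without the trend, without the low filter and without any 1 of the vehicle or Mpc1-KO libraries (highest 0.156).

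Of 16 measured genes of mechanosensitive channels and their partners, 4 rose and 2 fell with UK5099 (median 0.05), and this share of 37.5% was near the 38.1% of all genes. Trpv4, a calcium channel opened by cell swelling, fell from 70.7 ± 4.28 to 38.5 ± 1.21 CPM (-0.87, adjusted p = 4.6e-06). Tmem87a (0.41, adjusted p = 3.0e-04), Tmc6 (0.38, 4.0e-04) and Tmem150c (0.70, 0.0016) rose. In Mpc1-KO Piezo1 and Pkd2, the polycystin 2 gene (-0.51, adjusted p = 0.035), fell and none rose (median 0.01), or 12.5% against 10.7% of all genes. Like that of Piezo1, the call of Pkd2 was lost without any 1 of the vehicle or Mpc1-KO libraries (highest adjusted p = 0.137).

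All 11 measured genes of the enamel and ameloblast list passed with UK5099, against 38.1% of all genes. Of these, 4 were higher and 7 lower (median -0.48), although 3 of the calls were lost in some alternatives. Dlx3 lost its call with the replicate block (adjusted p = 0.0523) and without most single libraries (highest adjusted p = 0.16), Mmp20 without any 1 vehicle library or UK5099 library 3 (highest 0.0964), and Itgb6 without vehicle library 1 or 3 (highest 0.0712). Several are general epithelial genes: the laminin genes Lamb3 (-0.49, adjusted p = 3.6e-04) and Lama3 (-0.51, adjusted p = 4.0e-04) code for chains that anchor basal cells to the basement membrane. Fam20c, a kinase of secreted proteins, fell from 16.3 ± 1.01 to 10.3 ± 0.562 CPM (-0.63, adjusted p = 0.0011). In Mpc1-KO none rose and 3 fell (27.3%, against 10.7% of all genes, median -0.12). Mmp20, the enamel matrix protease enamelysin, fell from 2.31 ± 0.159 to 0.879 ± 0.274 CPM (-1.04, adjusted p = 0.0069), and Fam20a from 1.31 ± 0.118 to 0.471 ± 0.252 CPM (-0.92, adjusted p = 0.022). Fam20a rose with UK5099 (0.92, adjusted p = 0.0059), and Lama3 fell in Mpc1-KO (-0.26, adjusted p = 0.047). In Mpc1-KO the call of Lama3 was lost without any 1 of the vehicle or Mpc1-KO libraries and with other scalings (highest adjusted p = 0.189). That of Fam20a was lost there without any 1 vehicle library or Mpc1-KO library 1 or 3 (highest 0.0987).

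**Figure D4:**
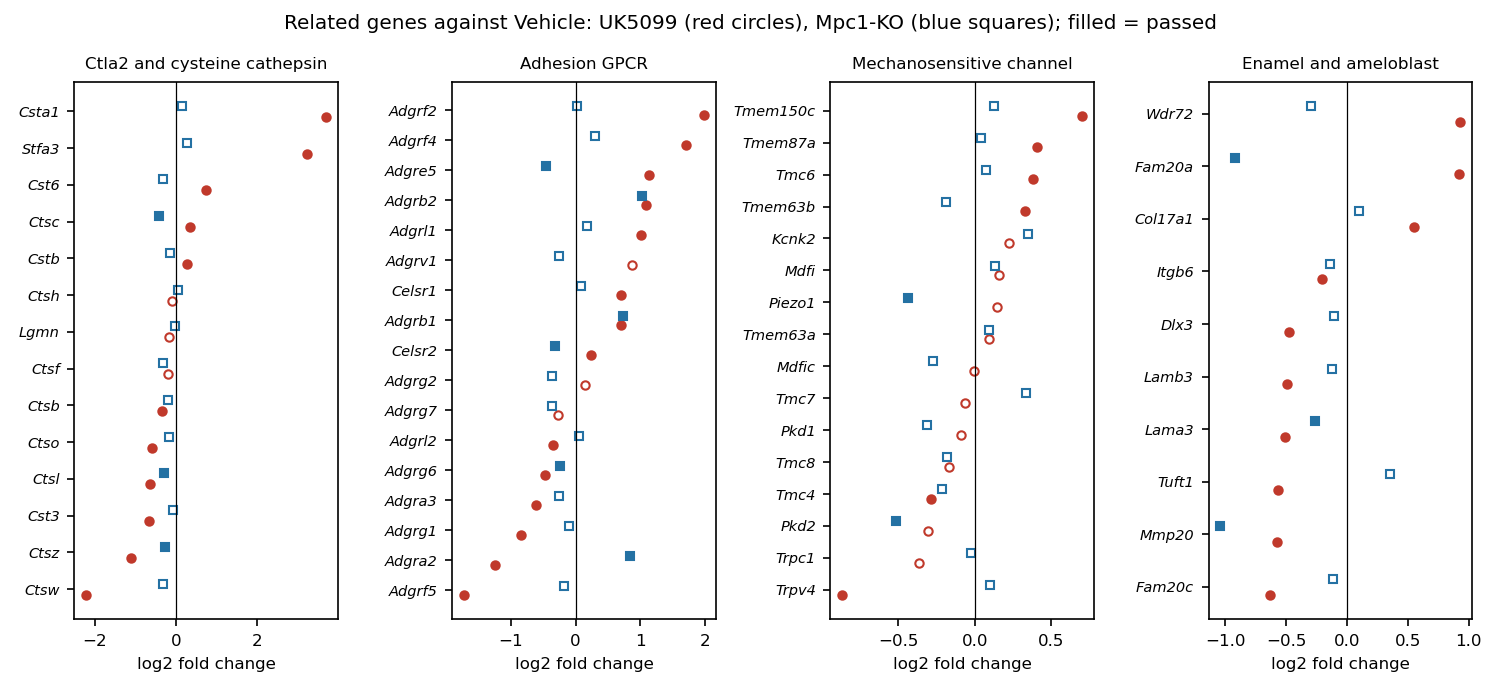
Fitted log2 fold changes against vehicle of 57 tested related genes in their 4 lists, for UK5099 (red circles) and Mpc1-KO (blue squares), filled where the limma adjusted p was below 0.05. In the enamel list every red circle is filled, and 3 blue squares are, at Fam20a, Lama3 and Mmp20.

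The measured genes nearest to each of the 4 on its chromosome, in the gene order of GRCm38.p6, had smaller fitted changes. Odaph lies directly between Thap6 and Cdkl2. Cdkl2, a cyclin-dependent kinase-like gene, fell in Mpc1-KO from 22.0 ± 1.21 to 12.9 ± 1.46 CPM (-0.75 ± 0.13, adjusted p = 0.0079) and passed there in every alternative, while Thap6 fell from 13.2 ± 1.04 to 9.71 ± 0.898 CPM (-0.42, adjusted p = 0.033), a call lost without any 1 of the vehicle or Mpc1-KO libraries (highest adjusted p = 0.149). With UK5099 neither passed (-0.21, adjusted p = 0.22, and 0.14, adjusted p = 0.33), except Cdkl2 without UK5099 library 1 (adjusted p = 0.0337). Kndc1, with 1 gene between it and Adgra1, fell with UK5099 from 3.04 ± 0.508 to 0.787 ± 0.218 CPM (-1.46 ± 0.18, adjusted p = 1.5e-04), and did not pass in Mpc1-KO (-0.12, adjusted p = 0.70). Inpp5a, on the other side of Adgra1, passed in neither (adjusted p = 0.33 and 0.64).

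Beside Piezo2, Napg passed in neither comparison (0.13, adjusted p = 0.14, and 0.03, adjusted p = 0.76), and Txnl1 fell with UK5099 (-0.15, adjusted p = 0.027) and did not pass in Mpc1-KO (0.14, adjusted p = 0.082). Beside Ctla2a, Dapk1, the gene of a death-associated kinase, rose in Mpc1-KO (0.23, adjusted p = 0.036), and the predicted gene Gm3325, with 31 genes between, passed in neither (adjusted p = 0.40 and 0.36). The calls of Txnl1 and Dapk1 were each lost in some alternatives (highest adjusted p = 0.0928 and 0.135).

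**Figure D5:**
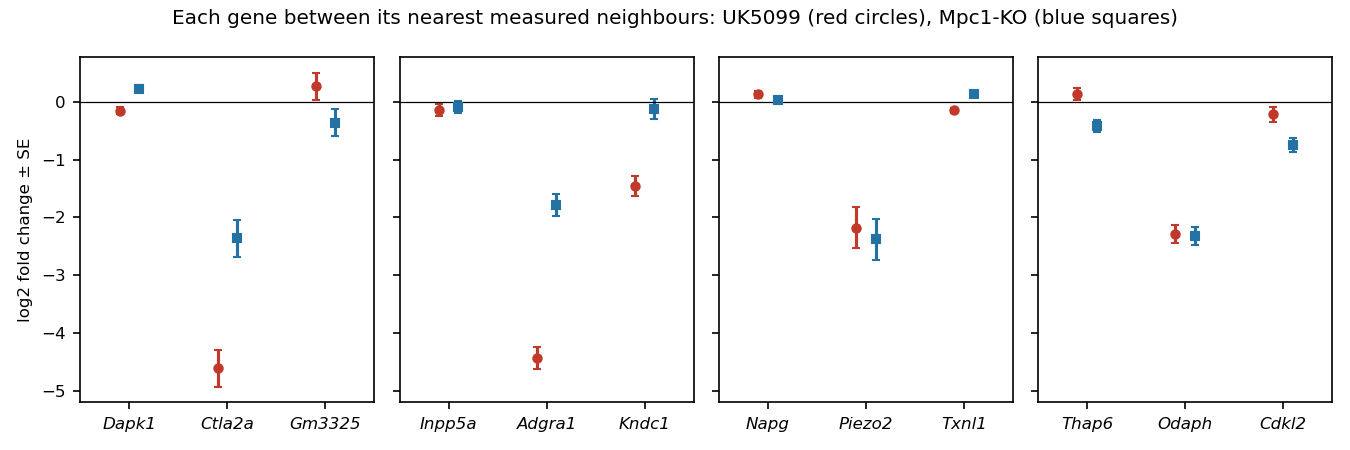
Fitted log2 fold change with its standard error of each of the 4 genes and of the nearest measured gene on either side, for UK5099 (red circles) and Mpc1-KO (blue squares) against vehicle. Kndc1 lies below 0 with UK5099 (-1.46), and Thap6 and Cdkl2 lie below 0 in Mpc1-KO (-0.42 and -0.75).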

How the data were processed

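The study's methods and the submitters' processing notes state that the authors made stranded mRNA libraries, sequenced them single-end (50 bases), aligned them with STAR (2.7.9a) to GRCm39 and normalized gene counts in Partek Flow, and that the authors tested them with DESeq2. The deposited values are CPM to which the authors added 0.0001, subtracted here. Of 52249 entries, 1 had no gene name (0.000715% of a library or less) and was not used. Reads were recovered as multiples of the smallest step, and 99.90% to 99.94% of values were whole within 0.02, so depth is known and limits low values.

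The 12396 genes averaging 1 CPM or more were fitted on log2(CPM + 0.5) by limma 3.58.1 (R 4.3.3), with all 9 libraries in 1 fit, a mean-variance trend and 6 residual degrees of freedom. P-values are two-sided and Benjamini-Hochberg adjusted over all genes of a comparison, with a threshold of 0.05. The procedure was also run on simulated data. There all genes and groups had the same spread setting, so the unequal spread of the groups here was not covered. The 4 genes and all lists were chosen with earlier results of these data known. The rule also named Mpc1, the nearest paralogs, up to 4 passing genes with the smallest p of each list and comparison, the 3 genes most like each of the 4 (predicted genes left out), chromosome neighbours and genes adjacent in rank. Fn1, Vim and the other markers were named after their values were seen, and 3 genes that the rule or a list held are not reported here.

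Deviations from group means correlated at 0.445, 0.144 and 0.309 for same-numbered vehicle and UK5099 libraries. All were above 0.1, the mark taken for pairing, although no shared batch is stated. Of differently numbered libraries, UK5099 3 with vehicle 2 (0.264) and UK5099 2 with vehicle 3 (0.134) were also above 0.1. The rest were -0.433 to -0.211. Libraries 2 and 3 thus did not separate by number, pairing was not settled, and the main fit used no block. For same-numbered Mpc1-KO libraries the values were -0.0384, -0.0192 and 0.0901 against vehicle, and -0.122, -0.0802 and 0.117 against UK5099. Alternatives were a replicate block, other pseudocounts, filters and scalings (TMM from an unweighted trimmed mean), no trend, only the 6 libraries compared, and each library left out.

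Promoters are RefSeq windows of GRCm38.p6, and 50-base windows come from GENCODE M21 transcripts. Both precede GRCm39 and served for sequence and gene order only, since the deposited table has no coordinates. Of its symbols 96.4% matched GENCODE M21.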

Additional observations from a re-analysis of the deposited data

How the results depend on the processing

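For the 4 genes every fall against vehicle kept its direction in all alternatives run. With a pseudocount of 0.1 CPM the log2 fold change with UK5099 was -5.56 for Ctla2a and -5.24 for Adgra1, and that of Piezo2 in Mpc1-KO was -2.56. With a pseudocount of 2 CPM the values with UK5099 were -3.28, -3.16 and, for Odaph, -2.06, and those in Mpc1-KO were -2.02 for Ctla2a, -1.56 for Adgra1, -1.90 for Piezo2 and -2.08 for Odaph. As the log2 ratio of group means without a pseudocount they were -5.48 for Ctla2a and -5.41 for Adgra1 with UK5099, and -2.60 for Piezo2 in Mpc1-KO. The difference between Mpc1-KO and UK5099 for Ctla2a and Adgra1 was 3.08 and 3.39, 1.26 and 1.59, and 3.01 and 3.53 under these settings in turn. The difference of Piezo2 ran from -0.70 (± 0.17, without UK5099 library 3) to 0.13 (without UK5099 library 2) with 1 library left out, and was -0.40 as the ratio of means. That of Odaph was 0.01 with median-of-ratios scaling.

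In Mpc1-KO against vehicle, 1323 genes passed (14 related genes). Without the low filter 761 did (6 related), without the trend 9 related genes did, with only the 6 libraries of the comparison 4399 did (28 related), and leaving out 1 library in turn gave 309 to 3593 (2 to 25 related). With only the 6 libraries compared, UK5099 against vehicle gave 1765 genes higher and 1709 lower, fewer than the 2164 and 2235 for Mpc1-KO. The main fit used 1 estimate of spread for all 3 groups, and the shares called under it do not rank the conditions. The cause was not tested. Calls in Mpc1-KO against vehicle split into 699 higher and 624 lower, or 613 and 808 with median-of-ratios scaling and 625 and 776 with TMM scaling. The balance also turned with median-of-ratios scaling for UK5099 against vehicle (2462 higher and 2259 lower, then 2354 and 2540) and for Mpc1-KO against UK5099 (2620 and 2878, then 2964 and 2793). With the replicate block 4922 genes passed for UK5099, 1399 for Mpc1-KO and 5765 between them. Of the related genes' calls against vehicle, the block removed Dlx3 and Adgrg6 and added Adgrg2 (0.0388) and Tmem63b (0.0409), both in Mpc1-KO. It changed no other of these calls. The planned count tests on reads recovered from the CPM steps (by 2 other tools) were not run, and depth limits Ctla2a and Adgra1 with UK5099, where libraries held 4 to 27 reads.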
